A study of Bos taurus with 16 samples.

Results

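Interferon-stimulated genes were followed in cells sorted as CD14+ from the endometrium and from the blood of the same 4 pregnant cows. CD14 is a lipopolysaccharide co-receptor carried by monocytes and macrophages. A list of 36 genes was searched by gene symbol among the 21475 probes of an Agilent bovine array, either as the probe's gene name or as the symbol in brackets in its description. Of these, 24 genes were found, each with 1 probe, and all 24 passed the filter on dim probes. Most bovine probes were described by their similarity to a human gene, and the symbols used here are those of that description. A further probe of the STAT2 locus is described as IL23A and was not used. The other 12 genes of the list were USP18, OAS2, IFIT1, CMPK2, BST2, EIF2AK2, IFI6, IFI27, XAF1, DHX58, IRF7 and IRF9, of which 6 were found only under an older name and are given separately.

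The animals were at days 164, 239, 242 and 248 of pregnancy and are called animals 1 to 4 in that order. They were collected at an abattoir, with blood drawn from the heart and endometrial cells released by enzyme digestion, so digestion and tissue cannot be told apart. Amplified endometrial and blood RNA of an animal was hybridized together, in different dyes, on 2 arrays, and dyes were swapped between them in animals 1, 2 and 4, while in animal 3 the endometrium was labeled with Cy5 on both. No nonpregnant animals were among the samples. Levels are log2 normalized intensities, and a ratio is the level in the endometrium minus the level in the blood of the same animal, so that a negative ratio means a higher level in blood. The sort marker CD14 had levels of 12.17, 6.41, 8.14 and 6.82 in the endometrium and 14.24, 6.30, 7.63 and 6.69 in the blood of animals 1 to 4. It was bright in animal 1 and far lower in both tissues of animals 2 to 4, though well above background in 8 of 8 channels of each tissue, and its mean ratio was -0.33 (SE 0.48, n = 4).

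Type I interferons bind a receptor made of IFNAR1 and IFNAR2, which signals through JAK1 and TYK2 to STAT2. With IRF9 it forms part of a factor that switches on the stimulated genes, whose products sense viral RNA, block its translation or copying, and tag proteins with ISG15. In ruminants the early conceptus secretes interferon tau, a type I interferon that is the signal for maternal recognition of pregnancy, and stimulated genes such as ISG15, MX1, MX2 and OAS1 are known to rise in endometrium and in blood leukocytes at that stage.

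The signal of a member rests on a single probe of 60 bases. Sequences are given for the modifier ISG15, for IFIH1 and HERC6, which had among the lowest ratios, for STAT2, and for ADAR, the dimmest member in the endometrium. Capitals mark the longest run of at least 12 bases that the probe shared, on the same strand, with a probe of another gene on the array.
ISG15: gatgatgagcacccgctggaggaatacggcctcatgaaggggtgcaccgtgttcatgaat
IFIH1: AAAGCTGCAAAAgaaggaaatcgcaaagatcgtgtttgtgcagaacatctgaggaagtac
HERC6: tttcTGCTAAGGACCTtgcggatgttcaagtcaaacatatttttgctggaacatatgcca
STAT2: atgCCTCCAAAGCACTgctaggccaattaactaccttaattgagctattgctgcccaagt
ADAR: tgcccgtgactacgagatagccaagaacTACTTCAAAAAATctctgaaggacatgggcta
The ISG15 probe shared no run of that length. Over the 24 members the longest such run was 15 bases, in IFIT5, and no pair of members shared more than 11 bases. Probes were compared with probes and not with transcripts. Whether a probe also binds the transcript of a relative, as among MX1 and MX2 or the IFIT genes, was not tested. The GC content of the members' probes ranged from 35% to 55%, with a median of 43.3%, as over all probes. The probe labeled HERC5 lies on a locus that the current bovine gene table of ARS-UCD2.0 names HERC6, while the locus of the probe labeled HERC6 was not in that table, so both names are uncertain. OAS1 was matched to OAS1X, one of several bovine OAS1 copies.

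The stimulated genes tended to be lower in endometrial than in blood CD14+ cells, but not beyond the spread between animals after adjustment. By limma, 0 of 24 members passed an adjusted p of 0.05 together with a difference of more than 2-fold, which 0.0661% of the 16654 tested probes did, all of them higher in endometrium. With the p left unadjusted, at most 0.05 and more than 2-fold, here called the unadjusted rule, 4 of 24 members were higher in blood, namely IFIH1, HERC6, IRF1 and TRIM25, against 5.11% of all probes, and 0 of 24 were higher in endometrium, against 5.27%. When the scanner files were assigned to the technical replicates that GEO attaches them to, which the authors' own table contradicts, 0 of 24 were at this rule, against 0.381% of all probes. Without the fold, STAT2 joined them and 5 of 24 were at that p and higher in blood, against 8.63%. The mean ratio was below 0 in 19 of 24 members, against 52.6% of all probes, and 6 members but 7.61% of all probes lay below -1. No member lay above 1, where 8.14% of all probes lay. The median ratio of the members was -0.45, and that of all probes tested was -0.02.

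**Figure D1:**
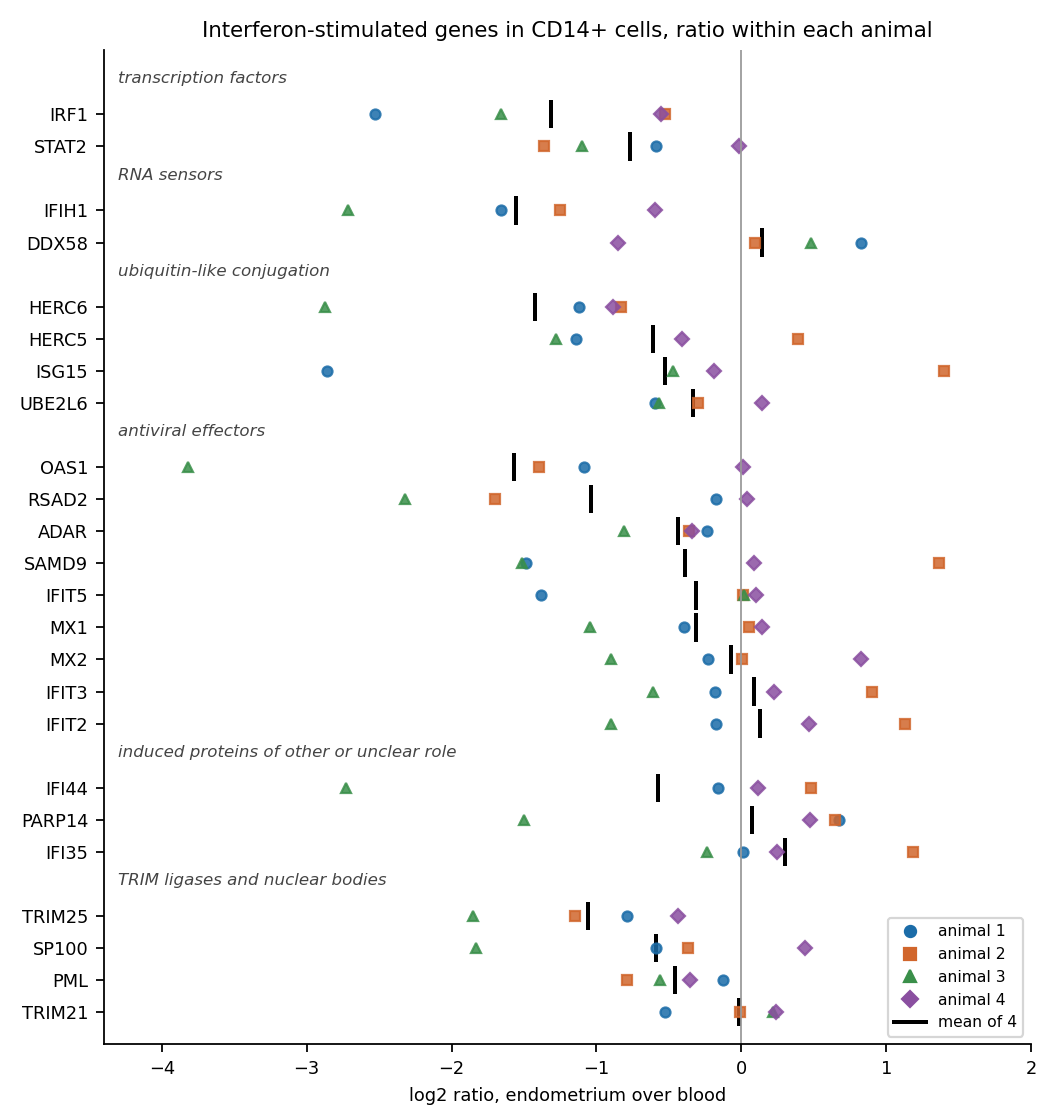
Log2 ratio of endometrium over blood (horizontal axis) of the 24 interferon-stimulated genes with a probe, ordered within roles. Symbols are the 4 animals and the black bar is their mean; animal 3 has the lowest ratio in 16 of the 24 genes, and the means run from -1.57 (OAS1) to 0.30 (IFI35).

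The difference between tissues was uneven across animals. From animal 1 to animal 4, the median ratio of the members was -0.56, -0.00, -1.07 and 0.06, while the median of all probes stayed between -0.09 and -0.02. The spread of all probes was uneven too, widest in animal 3 and narrowest in animal 4, with median absolute ratios of 0.46, 0.49, 0.76 and 0.31. Ratios below -1 were found for 8, 5, 13 and 0 members, against 11.9%, 12.1%, 21.9% and 5.14% of all probes. Ratios above 1 were found for 0, 4, 0 and 0 members, against 11.6%, 13.1%, 19.4% and 6.52%. Ratios below 0 were found for 21, 12, 21 and 10 of the 24 members in animals 1 to 4, against 57.4%, 52.6%, 51.1% and 53.8% of all probes. Animal 3 gave the lowest of the 4 ratios in 16 of 24 members, where it did so in 30.4% of all probes, and it is the animal without a dye swap. Removing the dye effect measured in the other 3 animals left the members' median at -0.46. All 4 animals were below 0 in 7 of 24 members, against 14.7% of all probes, and 0 of 24 were above 0 in all 4, against 10.2%. Without animal 3, the median of the members was -0.28 and 1 member, IFIH1, remained at the unadjusted rule, against 2.37% of all probes.

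**Figure D2:**
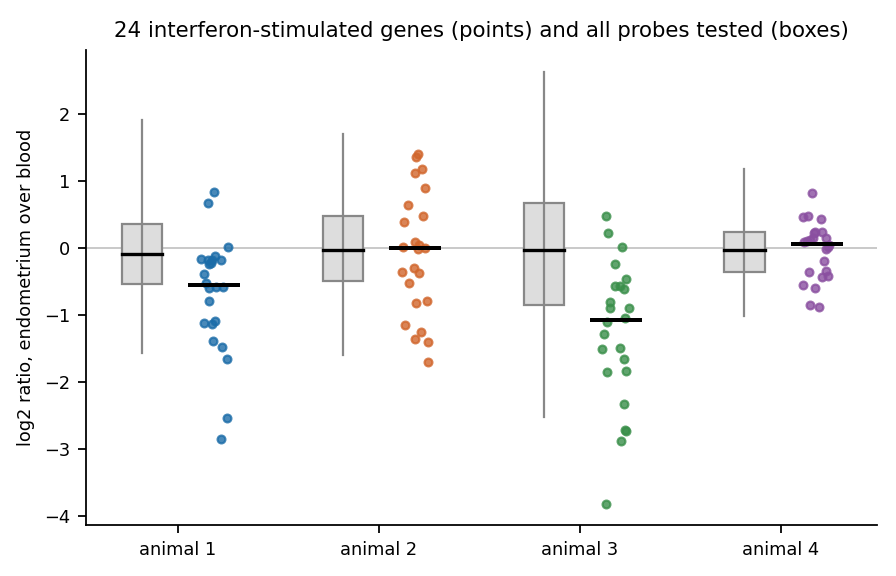
Log2 ratio of endometrium over blood (vertical axis) in each animal. Grey boxes show the quartiles of all 16654 tested probes, with lines from the 5th to the 95th percentile, and points are the 24 interferon-stimulated genes with their median as a black bar; the members' median lies at -0.56 in animal 1, at -1.07 in animal 3, and near 0 in animals 2 and 4.

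The transcription factors with a probe were IRF1 and STAT2. IRF1, which binds the promoters of many interferon-induced genes and is itself induced by interferon gamma, had levels of 10.95, 12.59, 11.99 and 12.67 in the endometrium and 13.48, 13.11, 13.64 and 13.22 in the blood of animals 1 to 4. The endometrial samples all lay below the blood samples, and the endometrium of animal 1 was the lowest. Its mean ratio was -1.32 (SE 0.41, n = 4), which limma gave an unadjusted p of 0.021 and an adjusted p of 0.273. STAT2, the signal carrier particular to type I and type III interferon, had levels of 6.99, 7.52, 7.51 and 8.78 in endometrium and 7.58, 8.88, 8.61 and 8.80 in blood. Both tissues of animal 4 were alike, the other 3 animals were lower in endometrium, and the tissues overlapped. The mean ratio of STAT2 was -0.77 (SE 0.30), with an unadjusted limma p of 0.0454 and an adjusted p of 0.319.

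Of the sensors of viral RNA, IFIH1 and DDX58 differed in pattern. IFIH1, also called MDA5, which binds long double-stranded RNA, had levels of 7.85, 9.21, 8.10 and 9.09 in endometrium and 9.5, 10.45, 10.82 and 9.69 in blood of animals 1 to 4. No endometrial sample reached the lowest blood sample, and every animal was higher in blood, by 1.66, 1.25, 2.71 and 0.60 on the log2 scale. At a mean ratio of -1.55 (SE 0.38), or 2.94-fold higher in blood, IFIH1 had the smallest p of the members, with an unadjusted limma p of 0.00834 and an adjusted p of 0.262. DDX58, or RIG-I, which senses short RNA with a triphosphate end, had ratios of 0.83, 0.09, 0.48 and -0.85 and a mean of 0.14 (SE 0.33). The 2 sensors were not tested against each other.

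ISG15 is a ubiquitin-like protein that UBE2L6 and HERC-type ligases attach to other proteins. All 4 genes of this group had mean ratios below 0, and HERC6 was the only one at the unadjusted rule. The HERC6 probe had levels of 6.28, 7.94, 6.64 and 7.49 in endometrium and 7.39, 8.76, 9.52 and 8.37 in blood. Each animal was higher in blood, with animal 3 far apart at a ratio of -2.88 and the others between -1.12 and -0.83. The mean ratio was -1.43 (SE 0.41), with an unadjusted limma p of 0.0159 and an adjusted p of 0.264, and it was -0.94, under the fold threshold, without animal 3 and -2.28 with the scanner's processed signals, to which no offset is added. For ISG15 itself, the levels were 12.05, 13.23, 13.75 and 11.89 in endometrium and 14.91, 11.83, 14.22 and 12.07 in blood. Animal 1 was higher in blood by 2.86 and animal 2 higher in endometrium by 1.40, so that the mean of -0.53 (SE 0.68, limma p 0.472) hid ratios of opposite sign. The probe labeled HERC5 had a mean ratio of -0.61 (SE 0.35), and UBE2L6, the E2 enzyme of the pathway, -0.33 (SE 0.23).

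**Figure D3:**
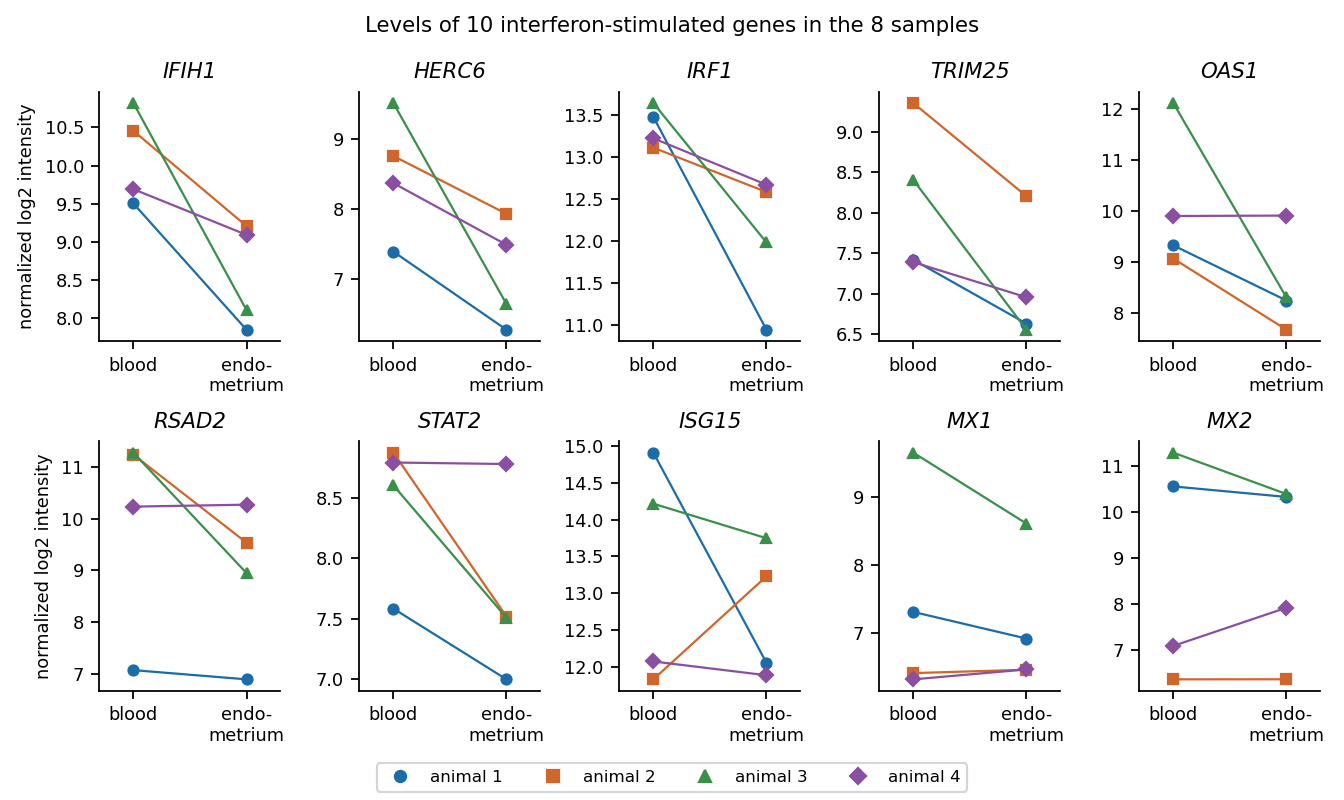
Normalized log2 intensity (vertical axes, each with its own range) of 10 interferon-stimulated genes in blood and endometrium, with a line for each animal. IFIH1 and IRF1 are the genes shown whose tissues do not overlap. ISG15 falls by 2.86 from blood to endometrium in animal 1 and rises by 1.40 in animal 2. MX2, like most members and most probes, differs more between animals than between tissues.

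Among 9 genes of antiviral effectors, none was at the unadjusted rule, and 7 had mean ratios below 0. OAS1, which makes the 2-5A signal that activates RNase L, had the lowest mean ratio of all members, -1.57 (SE 0.63), with an unadjusted limma p of 0.0515 and an adjusted p of 0.330. Its levels were 8.24, 7.66, 8.30 and 9.91 in endometrium and 9.32, 9.06, 12.11 and 9.90 in blood. The blood of animal 3 stood far above the other 7 samples, and animal 4 showed no difference at a ratio of 0.01. Without animal 3 the mean was -0.82. OAS1 was at the unadjusted rule with the authors' log2 table, at a limma p of 0.0396, and without animal 4, at 0.0253. RSAD2, or viperin, which makes a chain-ending nucleotide, had levels of 6.90, 9.53, 8.95 and 10.27 in endometrium and 7.08, 11.23, 11.27 and 10.23 in blood. Animals 2 and 3 were higher in blood and animals 1 and 4 close to 0, with a mean of -1.04 (SE 0.47, limma p 0.0743).

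MX1 and MX2, GTPases that trap viral nucleocapsids, had mean ratios close to 0. The MX1 levels were 6.91, 6.46, 8.61 and 6.46 in endometrium and 7.31, 6.41, 9.65 and 6.31 in blood, with a mean ratio of -0.31 (SE 0.28, limma p 0.317). The MX2 levels were 10.33, 6.37, 10.39 and 7.92 in endometrium and 10.55, 6.37, 11.29 and 7.09 in blood, with a mean ratio of -0.07 (SE 0.33, limma p 0.831). In both genes animal 3 was the highest animal in either tissue, and animals 2 and 4 were the lowest. For MX2 the animals spanned 4.92 in blood and 4.02 in endometrium, against an absolute mean ratio of 0.07 between tissues. A range between animals, averaged over both tissues, larger than the absolute mean ratio was common. It was found in 21 of 24 members, against 88.3% of all probes.

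Of the remaining effectors, the IFIT genes, whose proteins bind foreign RNA caps and ends, had mean ratios of -0.31 (IFIT5), 0.08 (IFIT3) and 0.13 (IFIT2). IFIT5 was higher in blood only in animal 1, by 1.38, with ratios between 0.01 and 0.10 in the others. IFIT2 and IFIT3 were dim, well above background in 6 and 4 of 8 endometrial channels and in 5 and 4 of 8 blood channels, so their ratios rest in part on signal near background. SAMD9, a restriction factor of poxviruses, had ratios of -1.48, 1.37, -1.51 and 0.09 and a mean of -0.39 (SE 0.55). ADAR, which edits adenosine to inosine in double-stranded RNA, was lower in the endometrium without overlap, at 6.05 to 6.25 against 6.48 to 6.86 in blood. The ADAR probe was well above background in only 2 of 8 endometrial channels but in 8 of 8 blood channels, and its mean ratio of -0.44 (SE 0.22, limma p 0.0976) became -2.48 with the processed signals. The 3 members whose tissues did not overlap, IFIH1, IRF1 and ADAR, were all lower in endometrium, as were 3.03% of all probes, and 0 members were higher without overlap, against 2.41%.

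TRIM25, a ubiquitin ligase that activates RIG-I, had levels of 6.63, 8.21, 6.56 and 6.96 in endometrium and 7.42, 9.36, 8.41 and 7.39 in blood. All 4 animals were higher in blood, while the animals differed enough that the tissues overlapped. Its mean ratio of -1.06 (SE 0.30), with an unadjusted limma p of 0.0145 and an adjusted p of 0.262, lay just over the fold threshold, and it was -0.79 without animal 3 and -1.78 with the processed signals. The nuclear body proteins SP100 and PML had mean ratios of -0.59 (SE 0.40) and -0.46 (SE 0.22). The mean of SP100 was -0.17 without animal 3. PML was higher in blood in all 4 animals, by 0.13 to 0.79, and its mean was -1.83 with the processed signals. TRIM21, the cytosolic antibody receptor, had the mean ratio nearest to 0, -0.02 (SE 0.24). Of the induced proteins of other or unclear role, IFI44 had a mean ratio of -0.57 (SE 0.58), with animal 3 at -2.73, and the mean turned to 0.14 without that animal. PARP14, an ADP-ribosyltransferase, was higher in endometrium by 0.47 to 0.67 in 3 animals and lower by 1.5 in animal 3, for a mean of 0.07 (SE 0.44). IFI35 had the highest mean ratio, 0.30 (SE 0.30).

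The spread of the members within a tissue was set beside that of all probes. The SD over the 4 animals had a median over the members of 0.76 in blood and 0.78 in endometrium, where all probes had 0.45 and 0.64. In 12 of 24 members the blood of animal 3 was the highest of the 8 samples, which it was for 11.1% of all probes. The endometrium of animal 1 was the lowest sample for 9 of 24 members, as it was for 23.9% of all probes. Averaged over both tissues, the level of an animal had an SD over 1 in MX2, RSAD2, IFIT5 and MX1, that is in 4 of 24 members, near the 13.9% of all probes. The same animal was highest in both tissues for 6 of 24 members, against 36.2% of all probes, and the same animal was lowest in both for 10 of 24, against 40.0%. The 2 arrays of an animal differed by at most 0.59 in the ratio of a member, in IFI35, and by less in the other members.

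**Figure D4:**
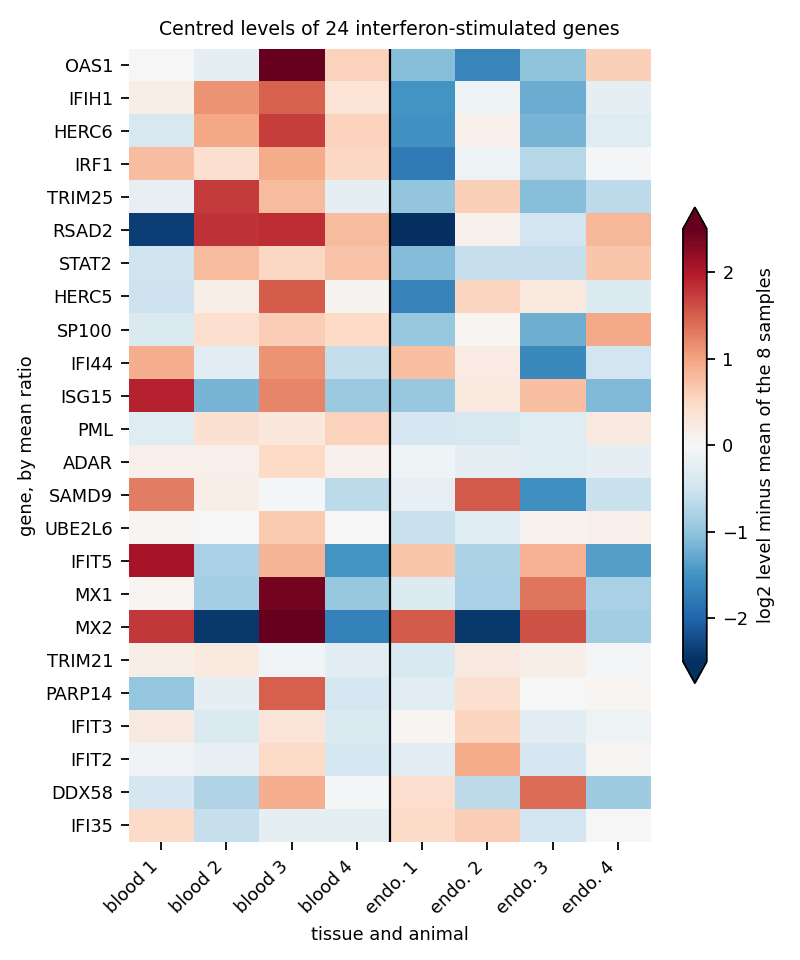
Level of each of the 24 interferon-stimulated genes in the 8 samples, as log2 intensity minus the mean of the gene's 8 values (colour, limited to 2.5 in either direction), with genes ordered by mean ratio. Blood of animal 3 is the highest sample for 12 genes, and the endometrium of animal 1 the lowest for 9.

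Through the reference gene table, 6 more genes of the list were found under older names in the files. USP18, the protease that removes ISG15, listed as bubp43, had levels of 7.92, 8.83, 9.43 and 11.12 in endometrium and 8.45, 11.74, 13.32 and 11.35 in blood. It was higher in blood in all 4 animals, with a mean ratio of -1.89 (SE 0.70), an unadjusted limma p of 0.0385 and an adjusted p of 0.305, a lower mean than that of any of the 24 members. DHX58, or LGP2, a sensor related to IFIH1, was also higher in blood in 4 of 4 animals, by 0.50 to 1.1, with a mean of -0.81 (SE 0.22, limma p 0.0116, adjusted p 0.262). IRF9, the DNA-binding partner of STAT2, had ratios of -0.92, -0.94, -3.66 and -0.27 and a mean of -1.45 (SE 0.59, limma p 0.055). EIF2AK2, or PKR, which stops translation, had -0.43, OAS2 had 0.15 and XAF1 had 0.01. With these genes the members' median was -0.45 over 30 genes, and USP18 joined the genes at the unadjusted rule, higher in blood.

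The wider pathway was read through 6 lists with 94 gene symbols, a few of them older and newer symbols of the same gene. Of these, 70 had a probe and 65 were tested. None was called, against 0.0661% of all probes. At the unadjusted rule 9 of 65 were higher in blood, against 5.11%, and 0 of 65 higher in endometrium, against 5.27%. A mean ratio below 0 was found in 46 of 65, against 52.6%, with a median of -0.24. Both chains of the type I receptor were among the 9. IFNAR2 had levels of 12.15, 12.32, 10.81 and 14.28 in endometrium and 14.46, 14.48, 15.16 and 14.32 in blood, with no endometrial sample above the lowest blood sample and hardly a difference in animal 4. Its mean ratio was -2.21 (SE 0.68), with an unadjusted limma p of 0.0205 and an adjusted p of 0.273. IFNAR1 had levels of 7.48, 6.98, 6.99 and 9.24 in endometrium and 8.75, 9.48, 9.1 and 9.71 in blood. All 4 animals were higher in blood, for a mean ratio of -1.59 (SE 0.39), an unadjusted limma p of 0.00799 and an adjusted p of 0.262.

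The chains of the interferon gamma receptor had mean ratios of -0.24 (SE 0.22) for IFNGR1 and -0.69 (SE 0.47) for IFNGR2, with animal 4 above 0 in both, and neither was at the unadjusted rule. Of the genes between nucleic acid sensing and interferon, the adaptor TRAF3 had -1.76 (limma p 0.00417, adjusted p 0.262) and IRF5 had -1.56 (limma p 0.0355, adjusted p 0.298), and both were at the unadjusted rule. IRF3, which switches on the interferon beta gene, was higher in endometrium in all 4 animals, by 0.07 to 1.16, with a mean of 0.77 (SE 0.27, limma p 0.0321, adjusted p 0.291), under the fold threshold. IRF8, a factor of the monocyte lineage, ranged from 0.82 in animal 1 to -4.97 in animal 3 around a mean of -1.44 (SE 0.96). Genes induced by interferon gamma at the unadjusted rule were TAP1, the peptide transporter of antigen presentation, at -1.83, IDO1, which breaks down tryptophan, at -1.36, and the tryptophanyl-tRNA synthetase WARS at -1.28. SAMHD1, which depletes nucleotides, at -1.25, and the exonuclease ISG20 at -1.15 were the genes of the further type I list at that rule. The interferon gamma gene IFNG was well above background in 8 of 8 channels of each tissue. Its ratios were 0.61, 2.64, -0.78 and 0.70 in animals 1 to 4, with a mean of 0.79 (SE 0.56, limma p 0.211). Probes for the type I interferons were dim. IFNT2, an interferon tau gene, was well above background in 1 of 8 channels of each tissue and was not tested, while IFNB1 was tested at a mean ratio of -0.02.

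**Figure D5:**
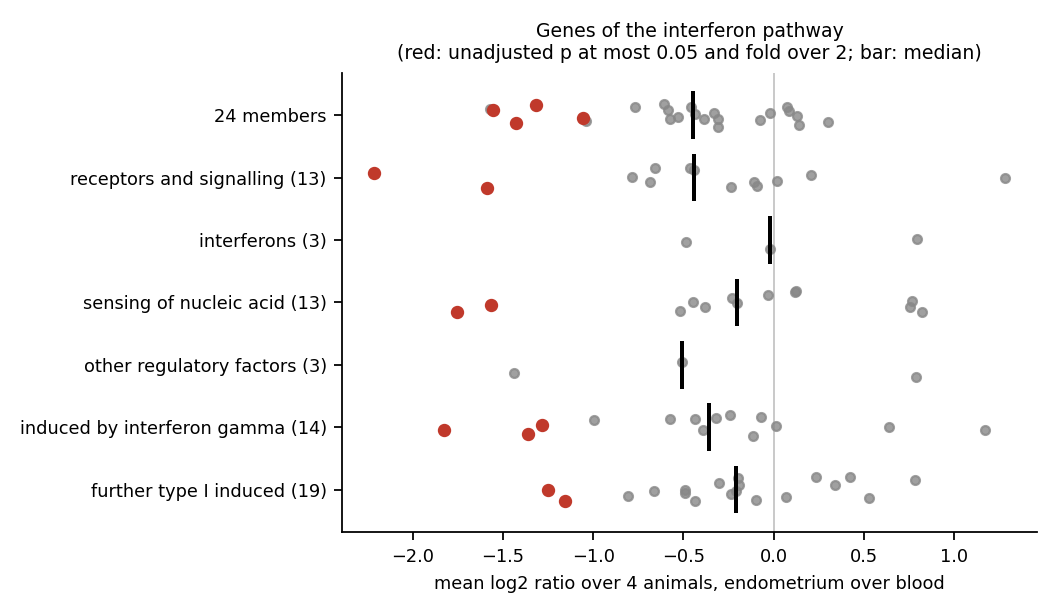
Mean log2 ratio over 4 animals, endometrium over blood (horizontal axis), of the 24 interferon-stimulated genes and of the tested genes of 6 further lists, with the number tested in brackets. Red points passed the unadjusted rule, all of them higher in blood, and black bars are medians.

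Markers of cell types also differed between tissues, and their part in the ratios was not tested. In these bulk samples fewer cells of a type and less RNA per cell cannot be told apart. All 6 B cell markers had mean ratios below 0, with a median of -1.65, and 3 of 6 were higher in blood at the unadjusted rule, against 5.11% of all probes. Their median was -1.23, -1.53, -3.75 and -0.23 in animals 1 to 4, beside member medians of -0.56, -0.00, -1.07 and 0.06. Their summed level spanned 11.65 to 14 in endometrium and 12.68 to 15.22 in blood. Plasmacytoid dendritic markers had 3 of 3 mean ratios below 0, with a median of -0.98 and summed levels of 9.25 to 11.50 against 9.49 to 11.82. Their median by animal was -0.04, -0.96, -1.80 and -0.64. In the other direction, epithelial markers had a median of 3.03 with 9 of 9 above 0 and summed levels of 13.54 to 16.72 against 10.17 to 11.57. Their median by animal was 2.87, 2.44, 4.11 and 2.26. At the unadjusted rule 6 of 9 were higher in endometrium, against 5.27% of all probes. Trophoblast markers had a median of 4.22, 5 of 5 above 0, and summed levels of 13.45 to 15.36 against 9.52 to 10.40, with PAG2 not well above background in either tissue. Their median by animal was 4.16, 3.94, 4.51 and 3.91. Of the 5 tested, 3 were called, against 0.0661% of all probes, and 4 were higher in endometrium at the unadjusted rule. Natural killer and T cell markers had a median of 1.04 with 6 of 9 above 0, and summed levels of 15.19 to 17.14 against 11.67 to 15.62. Their median by animal was 1.62, 1.11, 1.14 and 0.27, and 5 of 9 were higher in endometrium at the unadjusted rule. Over the 9 monocyte and macrophage markers the median ratio was 1.37, with 3 of 9 below 0, and the means ran from -1.29 in SPI1 to 2.85 in AIF1. At the unadjusted rule 5 of 9 were higher in endometrium, against 5.27% of all probes. The median of the 9 by animal was -0.02, 0.09, 2.48 and 2.30. Their summed level spanned 13.24 to 16.66 in endometrium and 12.04 to 16.74 in blood, and animal 1 was the highest in both tissues. In the blood of animals 1 to 4 it was 16.74, 12.33, 13.27 and 12.04. Natural killer and T cell markers there summed to 11.67, 15.29, 14.54 and 15.62, and B cell markers to 12.68, 13.83, 15.22 and 14.52. Both lymphocyte sums thus lay above the monocyte and macrophage sum in the blood of animals 2 to 4. In the endometrium of animals 1 to 4 the monocyte and macrophage sum was 16.66, 13.24, 15.28 and 15.01. The natural killer and T cell sum there was 15.19, 17.14, 16.03 and 15.87, so it was also the higher in animals 2 to 4. The B cell sum lay below the monocyte and macrophage sum in the endometrium of every animal. The lists hold different probes, so these sums do not give shares of cells.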

How the data were processed

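RNA of CD14+ cells was measured on 8 Agilent arrays with 2 colours, 2 for each of 4 animals. The scanner files deposited by the authors hold median intensities of spot and local background for each dye, not normalized, and a processed intensity. Per the labels Feature Extraction 9.5 made them, while the file headers carry 10.5.1.1. The authors' table holds log2 values, normalized by lowess and by quantiles over 16 channels. When its 16 columns were set beside the scanner signals, every column matched its labeled dye (100% of values, tolerance 0.001, with the spots of a probe sorted within the probe, since spot by spot 40.9% to 41.0% matched) on the animal's other array, not on the array GEO attaches to the sample, where at most 0.714% matched. Arrays were assigned by this match, and the assignment as attached was an alternative.

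With limma 3.58.1 in R 4.3.3, median intensities underwent normexp correction with an offset of 50, loess normalization of each array and quantile normalization of all channels, and the spots of a probe were averaged. Control and outlier spots were left out. Tests covered the 16654 probes whose spots both exceeded background clearly in 4 or more of a tissue's 8 channels. The log2 ratio of endometrium over blood, the mean of 2 arrays, was tested against 0 over 4 animals with lmFit and eBayes, and p was adjusted by Benjamini and Hochberg over all tested probes. Exact permutation of tissues within 4 animals cannot give a two-sided p under 0.125. Both tissues came from the same animal, and the r between their deviations from the tissue means was 0.62, 0.36, 0.21 and 0.46 from animal 1 to animal 4.

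The members, the pathway and marker lists and the tests were chosen with earlier results of these data known. All members are named with their ratio. Levels in every sample are given for members at the unadjusted rule (p up to 0.05, more than 2-fold), for the 5 largest ratios, and for ISG15, MX1, MX2, OAS1, IRF1 and STAT2. Those of RSAD2 are given as well, outside that choice. Pathway genes named are those at that rule, and IFNAR1, IFNAR2, IFNGR1, IFNGR2, IRF3 and IRF8. IFNG, IFNT2, IFNB1 and the 6 genes found through the reference were named after their values were seen. The values of 1 pathway gene that the rule names are not reported here. Probes of the pathway and marker lists were named through a gene table of ARS-UCD2.0 where it held them. No spot of a member was saturated or an outlier, 65.2% to 82.9% of spots in a channel were well above background, and precision is limited by the number of animals. The fit was tested on simulated data with shifts larger than the mean ratio of any member, so that test does not cover differences of the members' size. Granulocyte, stromal and endothelial markers had median ratios of -0.01, 1.98 and 0.40.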

Additional observations from a re-analysis of the deposited data

Results flagged for a closer look

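Among the 73 sets of 4 animals searched, the ratio, the endometrial level and the blood level of each of 24 members and the members' median, 5 held an animal apart from the rest by Dixon's criterion at 95%, where chance gives about 1 in 20. The ratio of IFIT5 was -1.38 in animal 1 and 0.01 to 0.10 in the others. Animal 3 stood apart in the other 4 sets. Its ratio of PARP14 was -1.50, against 0.47 to 0.67, and its ratio of HERC6 was -2.88, against -1.12 to -0.83. Its blood level of UBE2L6 was 11.01, against 10.34 to 10.39, and its blood level of ADAR was 6.86, against 6.48 to 6.50.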

How the results depend on the processing

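The members called stayed at 0 in all settings but 1. When all 8 arrays entered with a term for dye and a random effect of animal, 1 member, IFIH1, was called at an adjusted p of 0.0281. That fit counts arrays of an animal as partly independent, and 792 probes were called in it, or 4.76% of all probes. Those called higher in blood, as IFIH1 was, were 2.02% of all probes. The number of members at the unadjusted rule, higher in blood, was 4, and became 7 with the authors' log2 table, 2 with the methods' analysis of variance, 0 with the scanner files as attached to the samples, and 1 to 7 with an animal left out. Without animal 3 it was 1 and without animal 4 it was 7. The count higher in endometrium was 0 in every setting run. The members' median of -0.45 stayed between -0.58 and -0.02, and between -0.52 and -0.28 with an animal left out. The end at -0.02 came with the files as attached, where the dyes of the 3 swapped animals are exchanged between tissues. That reading also turned the ratios of IRF1 to 0.49, of IFIH1 to 0.20 and of TRIM25 to 0.13. With the authors' table the median of all probes moved to -0.14, so the members' median lay 0.44 below it, against 0.42 in the reported values.

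Leaving out the pairing (no replicate block) gave 3 members in place of 4 at the unadjusted rule, with TRIM25 at an unadjusted limma p of 0.0913, and 5 pathway genes in place of 9. Of all probes, 3.64% were then at that rule and higher in blood, in place of 5.11%. The 9 pathway genes became 5 without a filter on dim probes, 2 with the methods' analysis of variance, 1 with the files as attached, and 2 to 11 with an animal left out, 4 without animal 1, 4 without animal 2 and 2 without animal 3. HERC6 and TRIM25 fell under the fold threshold without animal 3, TRIM25 had an unadjusted limma p of 0.0516 without animal 2, and IRF1 one of 0.0573 without animal 1 and 0.0761 without animal 3. Averaging all probes of a gene changed nothing, since each member had 1 probe. Levels near the background limit IFIT2, IFIT3, PML, ADAR and, in endometrium, IFI44. PML, at -0.46, was -1.83 with the processed signals.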
